A study of Mus musculus with 6 samples.

Results

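The genes Ms4a4c, Ms4a6b, Ms4a6c, Ms4a6d and Ms4a7 belong to the membrane-spanning 4-domains subfamily A (Ms4a) and were examined in mouse bone marrow dendritic cell cultures with and without midkine. They were taken by symbol from a list of family members associated with macrophages. All 5 were among the 14912 gene symbols measured, which held 11 Ms4a genes in all, and all 5 passed the minimum mean of 10 normalised read counts, as did 11844 genes. A normalised read count is the number of reads of a gene divided by a size factor for its library.

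Wild-type (WT) bone marrow cells of C57BL/6J mice were grown with 50 ng/ml of FLT3LG, the FLT3 ligand on which dendritic cell formation depends, in control and treated cultures alike. The medium with FLT3LG was renewed on day 7. Midkine is a secreted cytokine that binds heparin. Recombinant human midkine was added at 10 ng/ml for the last 2 days in 3 samples, and 3 control samples received none. RNA was counted at transcript 3′ ends in bulk, with no cell sorting named in the labels, so that fewer cells of a type and less RNA per cell cannot be told apart. Neither the age of the mice nor whether replicates came from different animals or culture dishes is given in the sources used here. The p-values therefore measure only how these samples vary, and that spread may be technical.

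Ms4a proteins cross the membrane 4 times and sit beside other receptors whose signalling they adjust. The founding members are CD20 of B cells (Ms4a1) and the beta chain of the high-affinity IgE receptor of mast cells (Ms4a2), and a group of later members is characteristic of monocytes and macrophages. Mouse Ms4a6b, Ms4a6c and Ms4a6d are close relatives, Ms4a4c is known as an interferon-inducible gene of mouse leukocytes, and Ms4a7 marks several tissue macrophage populations, among them macrophages at the borders of the brain.

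Depth was 5089338 to 5532055 reads per control library and 5685055 to 6453768 per midkine library. Mitochondrial ribosomal RNA took 9.33% to 9.86% of the reads in control and 18.1% to 20.9% in midkine libraries, and the labels give a mean RNA integrity number of 8 for the samples, from 5 to 10. Of 10 tested stromal cell markers 9 rose and 1 fell, at a median log2 fold change of 1.25, and their summed level was 17010 to 20930 in control and 52330 to 54800 in midkine libraries. The part of these differences in the results below was not tested.

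Midkine cultures had lower levels of Ms4a6b and Ms4a6c, while Ms4a4c, Ms4a6d and Ms4a7 did not pass the test. Of the 5 members 2 fell, where 21.8% of all tested genes were called lower, and 0 rose, where 20.9% were called higher (limma, Benjamini-Hochberg adjusted p under 0.05 over all tested genes). The count of 0 higher members was the same at an unadjusted p under 0.05 and with edgeR and DESeq2, and both of these tools called 2 members lower. The values of the 2 called members did not overlap between groups, as was so in the lower direction for 26.2% of all tested genes. With 5 members these counts are a description of the members alone. The summed level of the 5 members was 3212 ± 196 normalised read counts in control and 2036 ± 87.3 in midkine cultures (mean ± SD, n = 3 each).

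**Figure D1:**
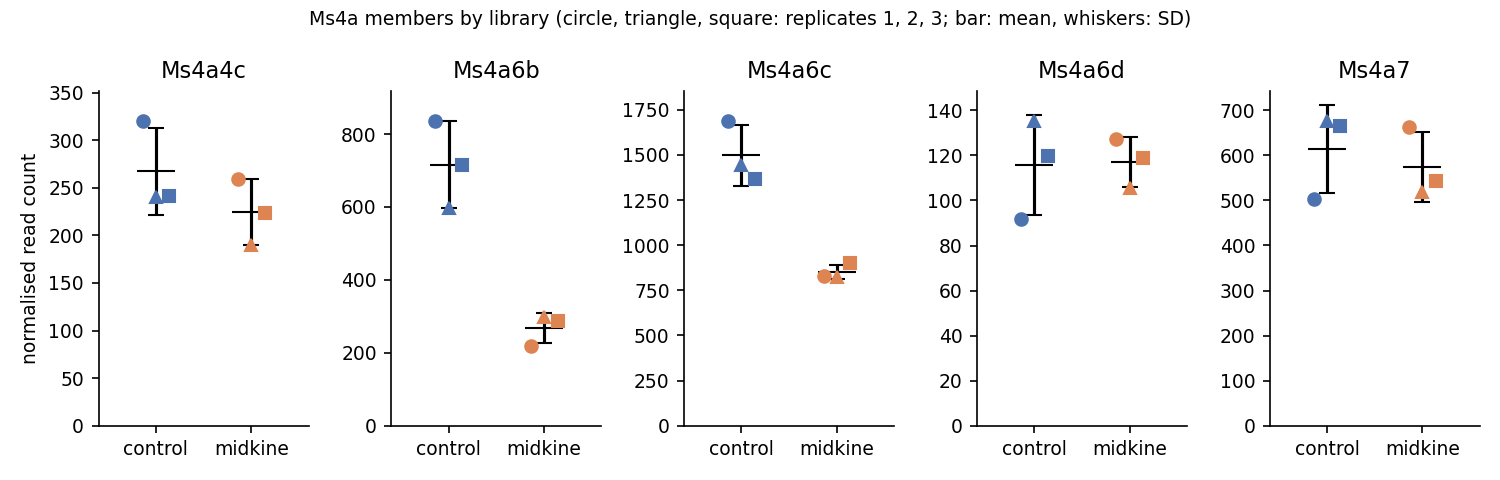
Normalised read counts (vertical axes, starting at 0, scaled separately for each gene) of the 5 Ms4a members in 3 control and 3 midkine libraries, with points for libraries, bars for means and whiskers for SD. The midkine points of Ms4a6b and Ms4a6c lie below all control points, and the groups overlap for Ms4a4c, Ms4a6d and Ms4a7.

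Ms4a6b fell the most of the 5 members. Its normalised read counts were 836, 596 and 716 in control replicates 1, 2 and 3, and 219.7, 298 and 287 in midkine replicates 1, 2 and 3. Every midkine library lay below every control library, by more than the range within either group. The mean went from 716 ± 119.9 to 268 ± 42.2 (SD, n = 3 each), 2.66-fold lower, with a log2 fold change of -1.41 (SE 0.12, 95% interval -1.65 to -1.17, limma adjusted p = 3.7e-10). These values rest on 2211 control and 804 midkine reads. Only 1.45% of all tested genes had a lower log2 fold change. Ms4a6b has 7 merged exons on the plus strand of chromosome 19 from 11516512 to 11531256 (GRCm38), and an exon overlaps the gene Gm19261.

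Ms4a6c, its close relative, fell as well. Its levels were 1688, 1442 and 1364 in control replicates 1 to 3, and 830.5, 825.7 and 898.9 in midkine replicates 1 to 3. The lowest control library was well above the highest midkine library, and the midkine libraries lay close together, with a highest value 1.09 times the lowest. The mean went from 1498 ± 169 to 852 ± 41.0 (SD, n = 3 each), 1.75-fold lower, a log2 fold change of -0.81 (SE 0.09, 95% interval -0.98 to -0.63, limma adjusted p = 2.0e-08). It was counted with 4642 control and 2529 midkine reads. Ms4a6c lies on the plus strand of chromosome 19 from 11469366 to 11482192 and overlaps the opposite-strand transcript BE692007, which had a mean of 2.57 in control and 2.58 in midkine cultures.

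The stretches before the annotated starts of Ms4a6b, Ms4a6c and Ms4a7 are shown as a description. Whether they bear on the fall of Ms4a6b and Ms4a6c was not tested. The first 2 are the 250 bases upstream of the RefSeq start of Ms4a6b (GRCm38.p6, plus strand, chr19:11518309-11518558) and of Ms4a6c (plus strand, chr19:11469118-11469367), and the last is that of Ms4a7 (minus strand, chr19:11336147-11336396), a member that was not called. The RefSeq start of Ms4a6b lies inside the GENCODE gene given above. Each is written 5′ to 3′ in the direction of its gene, and capitals mark matches to the searched motifs.
Ms4a6b: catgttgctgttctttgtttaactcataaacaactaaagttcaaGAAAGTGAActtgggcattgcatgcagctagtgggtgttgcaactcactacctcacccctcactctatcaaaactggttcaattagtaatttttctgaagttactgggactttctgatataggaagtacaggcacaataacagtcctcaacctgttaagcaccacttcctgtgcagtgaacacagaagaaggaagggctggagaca
Ms4a6c: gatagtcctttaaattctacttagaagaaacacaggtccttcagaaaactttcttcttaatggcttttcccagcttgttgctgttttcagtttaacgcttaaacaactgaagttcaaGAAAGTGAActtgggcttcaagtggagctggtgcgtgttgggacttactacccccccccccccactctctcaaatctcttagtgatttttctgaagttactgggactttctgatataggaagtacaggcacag
Ms4a7: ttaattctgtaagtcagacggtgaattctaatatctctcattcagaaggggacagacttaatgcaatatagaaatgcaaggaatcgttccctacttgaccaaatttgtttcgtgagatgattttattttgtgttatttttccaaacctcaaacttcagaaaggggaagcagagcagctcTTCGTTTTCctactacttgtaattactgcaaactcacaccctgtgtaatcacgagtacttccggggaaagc

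In Ms4a6b and Ms4a6c the best local alignment covered 172 aligned bases, of which 148 (86.0%) were identical. Both hold GAAAGTGAA, a match to the core of the interferon-stimulated response element (ISRE core, searched as GAAANNGAA on both strands), at -206 to -198 from the start of Ms4a6b and at -133 to -125 from that of Ms4a6c. The ISRE core was found in 7.13% of 32851 promoters of the same length. Ms4a7 holds it as well, on the opposite strand, at -71 to -63. Ms4a7 has another RefSeq start, whose 250 bases hold an ISRE core and a match to the AP-1 motif TGANTCA, which 6.75% of promoters hold. The motifs GAS (TTCNNNGAA, 7.02% of promoters), PU.1 (GAGGAAG, 10.6%), MAF (TGCTGAC, 3.81%) and C/EBP (TTGCNNAA, 9.56%) had no match in these windows, and Ms4a4c had a match to none of the 6. Promoters of 4 members were matched by symbol in the RefSeq table. None was matched for Ms4a6d, so whether this uncalled relative holds the ISRE core was not examined. A match describes the letters of the window and is no measured site.

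Ms4a4c, known as an interferon-inducible gene, had values of 320.2, 239.8 and 242 in control replicates 1 to 3. In midkine replicates 1 to 3 it had 259, 189.7 and 224. Midkine replicate 1 lay above control replicates 2 and 3, so the groups overlapped. The means were 267 ± 45.9 and 224 ± 34.7 (SD, n = 3 each), with a log2 fold change of -0.25 (SE 0.12, 95% interval -0.51 to 0.01, limma adjusted p = 0.111). The interval reaches from 0.703 to 1.005 of the control level, so it includes both a clear fall and no difference. The call depended on the scaling and on 1 library. Scaling to total counts gave -0.51 (limma adjusted p = 0.0014), scaling to total counts without ribosomal RNA gave -0.33 (0.035), and leaving out midkine replicate 1 gave -0.36 (0.0389), all called, and over 20 alternatives the adjusted p ranged from 0.0014 to 0.502.

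Ms4a6d is the third of the close Ms4a6 relatives, and its groups overlapped. Control replicates 1 to 3 had 91.6, 135 and 119.9 normalised read counts and midkine replicates 1 to 3 had 127, 105 and 119.0. All 3 midkine libraries lay inside the control range. The log2 fold change was 0.03 (SE 0.15, 95% interval -0.27 to 0.34, limma adjusted p = 0.875), a sign that turned to -0.22 with scaling to total counts, where it was not called either. With 357 control and 346 midkine reads it was the member with the fewest reads.

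Ms4a7, the marker of tissue macrophage populations, had 502, 676 and 666 normalised read counts in control replicates 1 to 3 and 663, 518 and 544 in midkine replicates 1 to 3. Again every midkine library lay inside the control range. The means of 615 ± 97.5 and 575 ± 77.2 (SD, n = 3 each) gave a log2 fold change of -0.09 (SE 0.11, 95% interval -0.32 to 0.13, limma adjusted p = 0.519). With scaling to total counts, which moved the median of all tested genes to -0.26, it was -0.35 and called (limma adjusted p = 0.0107), or -0.09 relative to that median. Relative to the same median Ms4a4c was at -0.24, Ms4a6b at -1.41, Ms4a6c at -0.80 and Ms4a6d at 0.04.

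The members did not rank the control libraries alike. Control replicate 1 was the highest of the 3 for Ms4a4c, Ms4a6b and Ms4a6c and the lowest for Ms4a6d and Ms4a7. Midkine replicate 1 was the highest of its group for Ms4a4c, Ms4a6d and Ms4a7 and the lowest for Ms4a6b. The coefficient of variation among control libraries was 11.3% for Ms4a6c to 19.2% for Ms4a6d, against 2.54% and 9.17% from counting alone. In midkine libraries the spread of Ms4a6d (9.45%) was close to its counting error (9.31%).

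Ms4a6d and Ms4a7 had the most similar profiles of any 2 members. The root mean square difference of their log2 profiles over the 6 libraries, each centred on its mean, was 0.096, against 0.81 for Ms4a6b and Ms4a6d at the other end. The log2 ratio of Ms4a6d to Ms4a7 was -2.42 ± 0.08 in control and -2.29 ± 0.09 in midkine libraries (SD, n = 3 each, exact permutation p = 0.2, two-sided). The log2 ratio of Ms4a6b to its relative Ms4a6c went from -1.07 ± 0.18 to -1.68 ± 0.23, a shift of -0.61 without overlap of the groups. Of 10 pairs, 7 had ratios that did not overlap between groups, namely each pair of Ms4a6b or Ms4a6c with another member. For these 7 the exact permutation p was 0.1, the smallest that 3 against 3 libraries allow (0.143 adjusted over the 10 pairs). Pairs of a called with an uncalled member restate the fall of the called one and are no separate result. The share over pairs of all tested genes was not computed. Of single tested genes, 26.2% did not overlap in the lower direction. The ratios of members do not depend on the scaling between libraries.

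The make-up of the reads of the 5 members differed between the groups. Libraries were read from 3′ ends, so these are shares of reads that were not divided by transcript length. Ms4a6b supplied 19.3% to 24.3% of the member reads in control and 10.5% to 15.4% in midkine libraries. Ms4a6c had 43.9% to 49.1% and 39.6% to 43.4%. Ms4a7 supplied 14.6% to 21.9% in control and 26.2% to 31.6% in midkine libraries, although its own level did not pass the test, since the shares add up to a whole. Ms4a4c had 7.76% to 9.31% and 9.80% to 12.3%, and Ms4a6d 2.66% to 4.38% and 5.44% to 6.07%.

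**Figure D2:**
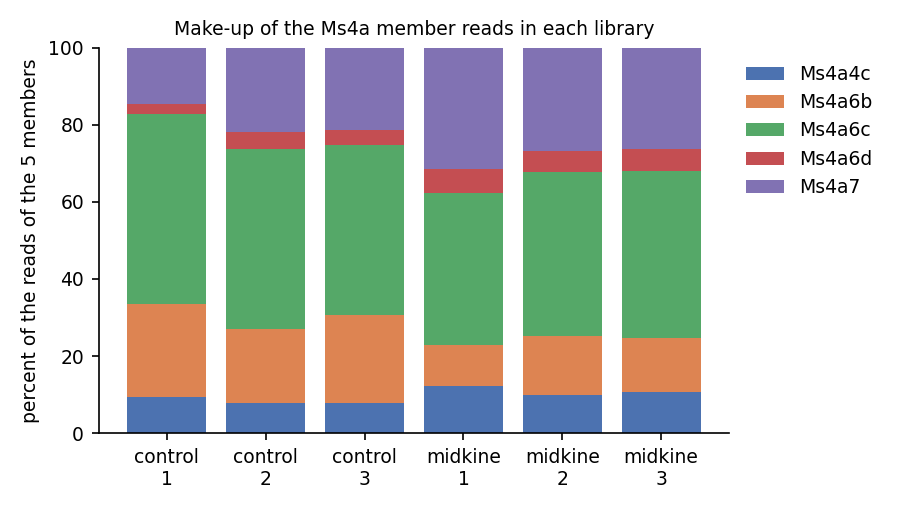
Share of each member (colours) in the reads of the 5 Ms4a members, in percent, for the 3 control and 3 midkine libraries. The Ms4a6b share is 19.3% or more in control and 15.4% or less in midkine libraries.

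Sequence similarity between the members bears on how reads are assigned. The coding sequences of Ms4a6b and Ms4a6c were identical at 86.4% of 641 aligned bases, those of Ms4a6b and Ms4a6d at 81.8% and those of Ms4a6c and Ms4a6d at 79.6%. All pairs with Ms4a4c or Ms4a7 lay between 60.8% and 68.9%. In the last 400 bases of the coding transcripts, where 3′ end reads fall, 13.4% of the 50-base words of Ms4a6c also occur in Ms4a6b, and 13.3% of those of Ms4a4c in Ms4a4b or Ms4a4d. Of the same stretch of Ms4a6b, Ms4a6d and Ms4a7 none occurs in another gene of GENCODE M21. Reads from shared words could have been split or lost, as the counting settings decide. The values of Ms4a6c, Ms4a6b, Ms4a4c and Ms4a4b and the ratio of Ms4a6b to Ms4a6c are uncertain to that extent.

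The other Ms4a genes were sparse in these cultures. Of 19 other Ms4a and Tmem176 genes looked for, 8 were in the table and 5 were tested, of which 2 rose and 0 fell, at a median log2 fold change of 0.40 against -0.0086 over all tested genes. At an unadjusted p under 0.05 and with scaling to total counts 1 was lower, Ms4a4a, and edgeR and DESeq2 called 0 lower. The 2 that rose were the related tetraspan genes Tmem176a, from 382 ± 50.6 to 564 ± 45.7 (log2 fold change 0.57, SE 0.10, limma adjusted p = 5.1e-05), and Tmem176b, from 425 ± 33.8 to 638 ± 38.4 (0.59, SE 0.09, limma adjusted p = 8.2e-06). Both were also called with scaling to total counts, at 0.31 and 0.33. Tmem176a and Tmem176b are cation channel genes prominent in dendritic cells, and they lie outside the Ms4a cluster.

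Ms4a4a, whose human counterpart marks alternatively activated macrophages, had 16.1, 14.9 and 19.8 normalised read counts in control and 9.01, 9.16 and 10.1 in midkine libraries. Its groups did not overlap, but it was not called (log2 fold change -0.77, SE 0.34, limma adjusted p = 0.0649), and it was called in 5 of 19 alternatives. Ms4a4b, a gene of T cells, was at 28.5 ± 2.19 and 38.0 ± 5.88 (0.40, limma adjusted p = 0.159), and Ms4a14 at 21.9 ± 7.13 and 25.3 ± 1.94 (0.24, limma adjusted p = 0.503). The B cell gene Ms4a1 was below the minimum, at 5.85 ± 1.94 in control and 12.4 ± 4.37 in midkine cultures, and was not called with a minimum of 1 either (limma adjusted p = 0.0774). Ms4a3, a gene of granulocyte and monocyte progenitors, was at 2.52 ± 3.51 and 2.30 ± 1.03, and the IgE receptor gene Ms4a2 had 2 control reads and 0 midkine reads, too few for a comparison.

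**Figure D3:**
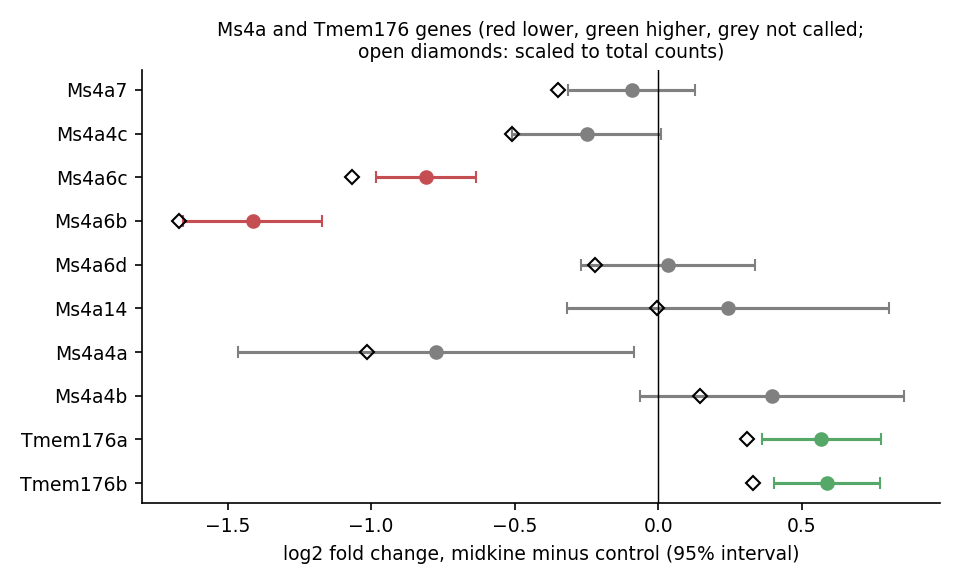
Log2 fold change of midkine against control with its 95% interval for the tested Ms4a and Tmem176 genes (filled points, coloured by call) and the same after scaling to total counts (open diamonds). Ms4a6b and Ms4a6c lie below 0 under both scalings, Tmem176a and Tmem176b above, and the sign of Ms4a6d and Ms4a14 turns with the scaling.

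The 5 members span 283.8 kb of chromosome 19, from 11321039 to 11604849. Ms4a7 lies at one end on the minus strand (11321039 to 11336146), followed by Ms4a4c (11404770 to 11427246), Ms4a6c and Ms4a6b on the plus strand and Ms4a6d (11586604 to 11604849) on the minus strand. The called members Ms4a6c and Ms4a6b are thus next to each other among the 5, between members that were not called. An exon of Ms4a4c overlaps the gene Gm5692, and exons of Ms4a6d and Ms4a7 overlap no other gene. Within 1 Mb of the span 21 genes outside the family were tested, of which 2 rose, 5 fell and 14 were not called (median log2 fold change -0.09). Those that rose were Slc15a3, a lysosomal transporter gene (1.05), and Dtx4 (0.91). Mpeg1, the perforin-2 gene of macrophages, fell from 4503 to 3570 (-0.34), as did Prpf19 (-0.37), Stx3 (-0.39), Fam111a (-0.34) and Mrpl16 (-0.30). Of 20 alternatives, 14 called Stx3, 16 Mrpl16, 17 Prpf19 and 19 Fam111a. Stx3 was not called with DESeq2 (adjusted p = 0.119) or without any 1 library other than midkine replicate 2, Mrpl16 not with DESeq2 (adjusted p = 0.0584) or without control replicate 2 or midkine replicate 1, and Prpf19 not without control replicate 1 or midkine replicate 2. With no variance trend Mrpl16, Prpf19 and Fam111a were not called.

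**Figure D4:**
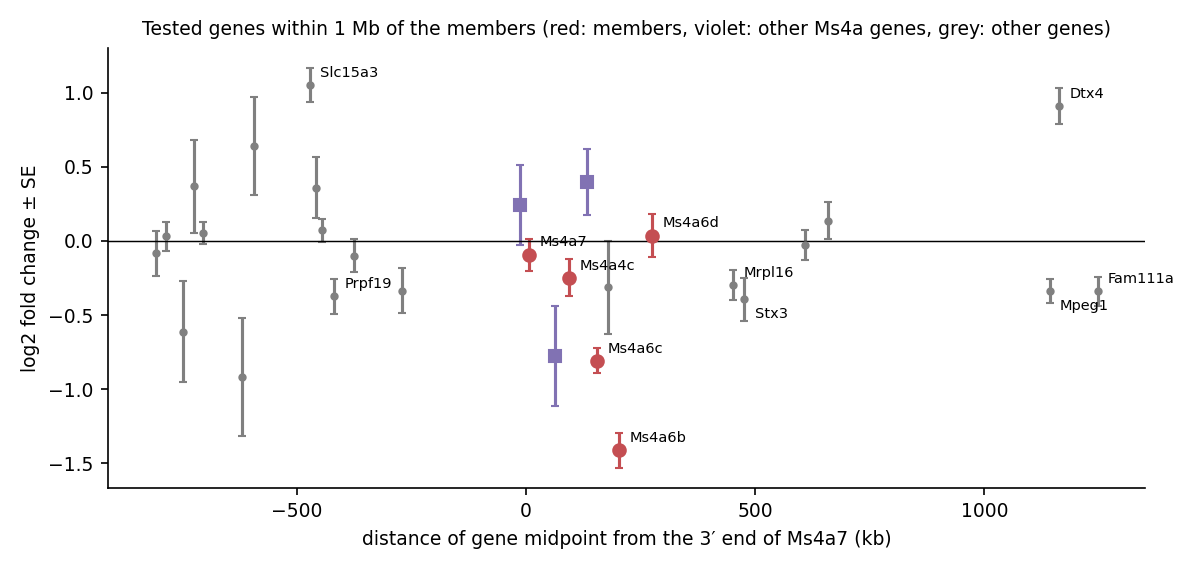
Log2 fold change with its SE (vertical axis) of every tested gene within 1 Mb of the members, by the distance of its midpoint from the 3′ end of Ms4a7 in kb (horizontal axis). Ms4a6b at -1.41 is the lowest point, followed by Vps37c at -0.92, which was not called, and Ms4a6c at -0.81.

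The genes with the profiles most like each member were found over the 6 libraries by the same root mean square difference of centred log2 profiles. Nearest to Ms4a6b were Mxd3 (0.115), Skint3 (0.120) and Foxm1 (0.124), a transcription factor gene of dividing cells, which fell from 189.8 ± 30.7 to 74.7 ± 2.32. Nearest to Ms4a6c were Sgpp1 (0.041), Srsf6 (0.047), a splicing factor gene, and Fmnl2 (0.052), a formin gene. Ms4a7 was nearest to Psmc1 (0.053), a proteasome subunit gene, Alg3 (0.064) and Thyn1 (0.066). Ms4a6d was nearest to Glo1 (0.040), Mrpl58 (0.050) and Zfhx4 (0.056), and Ms4a4c to Gdpgp1 (0.047), Mrpl44 (0.054) and Sept9 (0.061). The 6 libraries form 2 groups, so genes with a similar difference between the groups are near each other by construction.

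Receptors and adaptors known to work with MS4A proteins, or linked to them by genetics, form the next list. Of 8 listed genes 6 were tested, of which 4 rose and 0 fell (limma, median log2 fold change 0.29). None was lower at an unadjusted p under 0.05 or by edgeR or DESeq2, and with scaling to total counts 2 rose (median 0.03). Clec7a, the beta-glucan receptor dectin-1 that pairs with MS4A4A, rose from 109.0 ± 1.87 to 222 ± 37.5 (log2 fold change 1.00, SE 0.13, limma adjusted p = 4.9e-07), and Trem2, the lipid receptor whose soluble form varies with MS4A genes in humans, from 243 ± 72.9 to 488 ± 8.42 (1.05, SE 0.14, limma adjusted p = 1.5e-06). The adaptor gene Fcer1g (0.35) and the kinase gene Syk (0.22) were also called, but with scaling to total counts they were at 0.09 and -0.04 and not called. Of 20 alternatives 19 called Fcer1g and 12 called Syk, which was not called with DESeq2 (adjusted p = 0.0725), with total counts without ribosomal RNA, with no variance trend, or without control replicate 1, control replicate 3, midkine replicate 1 or midkine replicate 3. Tyrobp, the adaptor of TREM2, was at 0.14 (limma adjusted p = 0.129, and -0.11 with scaling to total counts) and Tnfrsf18 at -0.10 (0.667), neither called, while Vsig4 had 1 read over all libraries.

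The label of a macrophage family was set against markers of macrophages. All 20 listed macrophage genes were in the table and 17 were tested, of which 8 rose and 5 fell (median log2 fold change 0.19), a split that became 5 and 7 with scaling to total counts (median -0.06). The summed level of the list was 12970 to 16490 in control and 25660 to 28240 in midkine libraries. Without Gpnmb and Cd5l it was 11380 to 13830 and 13000 to 14240, with overlapping groups. Both genes rose the most of the list and were left out after the values were seen, while genes that fell were kept. Gpnmb, which encodes a glycoprotein of lipid-laden macrophages, rose (log2 fold change 2.76), as did Cd5l, which encodes a secreted macrophage protein (2.39), whereas the mannose receptor gene Mrc1 (-1.27) and the complement gene C1qa (-1.21) fell. Monocyte genes also went both ways, with 2 higher and 6 lower of 13 tested (median -0.05, summed level 8519 to 8545 in control and 10720 to 11030 in midkine libraries), or 1 and 7 with scaling to total counts (median -0.31). The higher sum rested on Fn1, a gene that stromal cells express too. Without Fn1, again left out after the values were seen, the sum was 5431 to 5964 in control and 4637 to 4862 in midkine libraries. The classical monocyte marker Ly6c2 (log2 fold change -4.28) and Spn (-0.80) fell, and the fibronectin gene Fn1 rose from 2879 to 6147.

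Transcription factor genes of the macrophage lineage and of interferon signalling were split as well. Of 21 tested, 4 rose and 9 fell (median -0.16), or 4 and 12 with scaling to total counts (median -0.41). Cebpb rose from 58.8 ± 3.28 to 234 ± 10.6 (1.98), while Tcf4, a factor of plasmacytoid dendritic cells (-1.56), and Irf7, a factor of interferon induction (-3.11), fell. Among interferon-response genes 21 of 23 tested fell and 1 rose (median -1.47). Rtp4 fell from 149.8 to 17.9, Trim30a from 1897 to 807 and Mx1, an antiviral GTPase gene, from 263 to 94.7. Of the members, Ms4a6b (-1.41) and Ms4a6c (-0.81) were called lower, and Ms4a4c (-0.25), Ms4a6d (0.03) and Ms4a7 (-0.09) were not called. The part of the interferon response in the levels of the members was not tested.

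Markers of the other cells that such cultures can hold were measured too. The plasmacytoid dendritic cell list had 10 lower and 1 higher of 13 tested (median -1.56, summed level 7324 to 7595 in control and 2433 to 2610 in midkine libraries). The type 1 conventional dendritic cell list had 9 lower and 1 higher of 11 (-0.73), and the type 2 list 4 lower and 6 higher of 12 (0.29), or 4 and 3 with scaling to total counts (0.03). The granulocyte progenitor and neutrophil list had 3 lower and 1 higher of 5 (-3.39, summed level 562 to 698 in control and 105.9 to 126 in midkine libraries), and the B cell list 3 lower of 5 (-0.92). In the mast cell and basophil list the 1 tested gene, Kit, fell (-0.44), and in the T and NK cell list the 1 tested gene, Ms4a4b, was not called. In the granulocyte and neutrophil list the calprotectin genes S100a8 (from 292 ± 35.02 to 18.9 ± 6.19) and S100a9 (from 215 ± 40.0 to 13.7 ± 4.03) and the granule protein gene Ngp (from 63.9 ± 5.83 to 5.52 ± 2.41) fell, and the collagenase gene Mmp8 rose (from 21.7 ± 3.49 to 51.5 ± 11.0). Of the other genes of that list Ly6g had 1 control and 0 midkine reads and Elane 5 and 0, and in the mast cell list Cpa3 had 1 and 0. Not all of the others were near 0. Mpo had 48 control and 24 midkine reads and was not called. Ltf (42 and 4 reads), Camp (34 and 11) and Prtn3 (24 and 34) were below the minimum mean and not tested. The B cell list summed to 401 to 531 in control and 248 to 281 in midkine libraries and the T and NK cell list to 33.4 to 40.1 and 54.5 to 62.3. Most of the T and NK cell sum was Ms4a4b, with means of 28.5 in control and 38.0 in midkine libraries. The untested genes of that list were Cd3d (7 control and 34 midkine reads), Trac (8 and 14), Trbc2 (1 and 7) and Nkg7 (12 and 5). The part of these cell types in the fall of Ms4a6b and Ms4a6c was not tested.

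**Figure D5:**
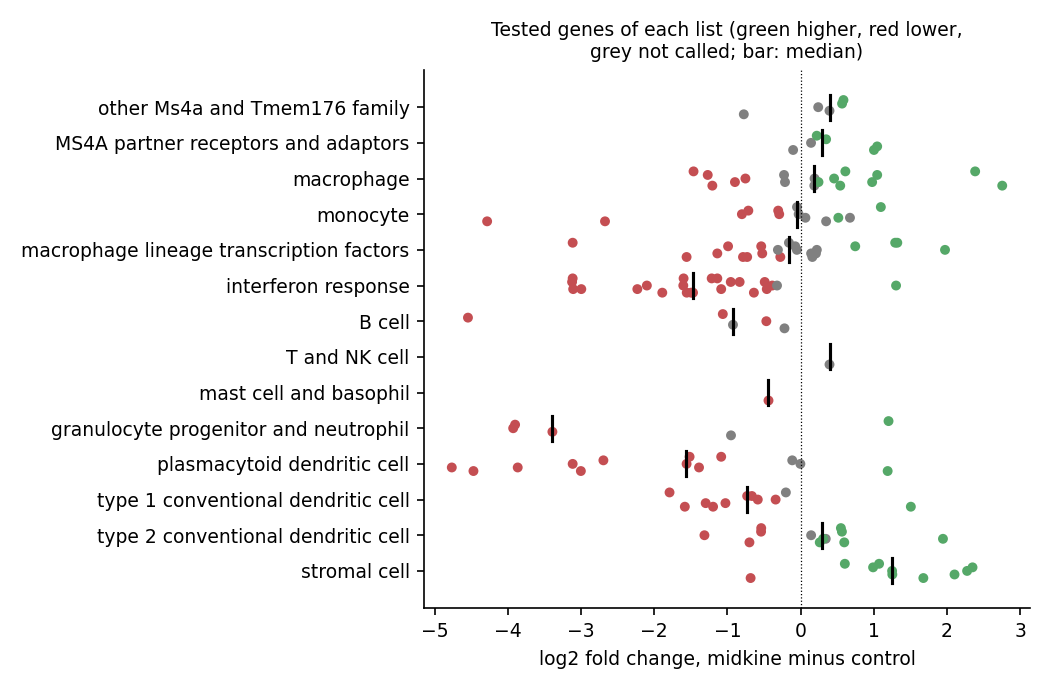
Log2 fold change of midkine against control (horizontal axis) of the tested genes of each list (points coloured by call), with the list median as a bar. Macrophage, monocyte and lineage factor genes lie on both sides of 0, and most interferon-response genes lie below it.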

How the data were processed

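RNA of 6 samples, 3 control and 3 midkine, was sequenced from 500 ng of total RNA with a 3′ end kit (QuantSeq, forward), per the labels' protocols. Tools named in the submitters' processing notes were HTSeq, TopHat2 2.0.10 with Bowtie 1.0.0, and also DESeq2, SAMtools 0.1.19 and FastQC 0.11.0. The builds named there were GRCm38 and mm10. For annotation and strand setting, nothing is given in the sources used here. The authors deposited a signal table, read counts divided by 1 size factor per library. Every value was a whole multiple of the value of 1 read, 0.916 to 1.13, within a tolerance of 1e-06, and 100% of values gave whole reads. In midkine replicate 3 that value is 1.00888, close to 1. All replicate pairs differed beyond sampling of reads, with chi-square over its degrees of freedom at 2.42 to 11.7, so no pair was treated as 1 library deposited a second time. No molecular identifiers are named, so counting errors cover reads only.

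Genes with a mean of at least 10 were tested with limma 3.58.1 (R 4.3.3, variance trend) on log2(value + 1), with Benjamini-Hochberg adjustment over 11844 genes and called below 0.05. This log2 scale understates the fold changes of low genes. Alternatives were pseudocounts of 0.5 and 5, minimum means of 1 and 50 and none, TMM scaling, quantile normalization, total-count scaling, either of all rows or after removing 3 ribosomal RNA rows, no variance trend, a replicate block, leaving out each library, a looser threshold of 0.1, and tests of the recovered reads with edgeR 4.0.16 and DESeq2 1.42.0. edgeR called 2606 genes higher and 2550 lower. The limma step was tested on simulated data of the midkine comparison (11844 genes): 66 of 66 genes with a 4-fold change were recovered, 53 of 67 with a 2-fold change and 13 of 67 with a 1.5-fold change, beside 6 false calls. The simulation changed far fewer genes than were called in the data. It also gave every gene the same spread beyond read sampling, so these rates may not hold for the data. Ratios of members were compared with an exact permutation test (SciPy 1.17.1).

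Members and lists were chosen with earlier results of these data known. Named genes were the members, every Ms4a, Tmem176 and partner gene with a mean of at least 1, up to 4 called genes with the smallest p of each other list, the 3 nearest profiles of each member (predicted genes passed over), and tested genes within 1 Mb, here the called ones. Ms4a2, Vsig4, BE692007, Ly6g, Elane, Cpa3, Mpo, Ltf, Camp, Prtn3, Cd3d, Trac, Trbc2 and Nkg7 were named after their values were seen. Positions and transcripts are from GENCODE M21 (GRCm38), promoters from RefSeq (GRCm38.p6), aligned with Biopython 1.88. Protein sequences were not used here. Some genes that the rule names are not reported here.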

Additional observations from a re-analysis of the deposited data

How the results depend on the processing

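Ms4a6b and Ms4a6c were lower and called under all 20 alternatives. Ms4a6b had adjusted p-values from 2.7e-23 to 0.00137 and leave-one-out log2 fold changes from -1.54 to -1.28, and Ms4a6c had 7.0e-16 to 0.00237 and -0.87 to -0.72. No alternative called a member higher. Scaling to total counts gave 4 members lower in place of 2, with Ms4a4c at -0.51 and Ms4a7 at -0.35 called, and 1283 genes higher and 4817 lower over all tested genes, against 2481 and 2578 (21% of calls higher, against 49.0%). Leaving ribosomal RNA out of the totals gave 38.9% of calls higher, with Ms4a4c at -0.33 and called. Leave-one-out values were -0.36 to -0.11 for Ms4a4c, called without midkine replicate 1 only, -0.12 to 0.16 for Ms4a6d and -0.23 to -0.018 for Ms4a7. The sign of Ms4a6d turned, uncalled, to -0.22 with scaling to total counts, -0.043 without ribosomal RNA, -0.12 without control replicate 1 and -0.027 when midkine replicate 1 was left out. Apart from the construction of each alternative, the cause of these shifts was not tested.

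Same-numbered libraries had correlations of their deviations from the group means of -0.01, 0.03 and -0.06. Deviations from means of 3 libraries cannot tell whether same-numbered libraries shared an origin. With a replicate block 2519 genes were higher and 2641 lower, 2 members were lower, and the log2 fold changes of Ms4a4c (-0.25), Ms4a6b (-1.41), Ms4a6c (-0.81), Ms4a6d (0.035) and Ms4a7 (-0.093) kept their calls. The limma adjusted p with this block was 0.0579 for Ms4a4c, 7.3e-20 for Ms4a6b, 3.2e-13 for Ms4a6c, 0.875 for Ms4a6d and 0.47 for Ms4a7.

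Of 1405 values of 71 other named genes, 1352 kept direction and call, 26 lost the call, 9 gained it and 18 changed sign. With scaling to total counts the sign turned for Ms4a14 (-0.0064), Tyrobp (-0.11), Syk (-0.036), Glo1 (-0.22), Mrpl58 (-0.15) and Zfhx4 (-0.21), and without ribosomal RNA for Glo1 (-0.044) and Zfhx4 (-0.03). Leave-one-out values were -0.26 to 0.11 for Tnfrsf18, -0.11 to 0.18 for Glo1, -0.025 to 0.22 for Mrpl58, -0.16 to 0.18 for Zfhx4 and -0.13 to 0.036 for Thyn1. The sign of Glo1, Mrpl58 and Zfhx4 turned without control replicate 1, that of Glo1 without midkine replicate 1 as well, that of Tnfrsf18 without control replicate 1 or midkine replicate 3, and that of Thyn1 in 4 of 6 such fits. Without Gpnmb and Cd5l the log2 ratio of the summed macrophage list was 0.09 in place of 0.84. Without Fn1 that of the monocyte list was -0.25 in place of 0.35. Both choices were made after seeing the data. Of the 5 members Ms4a6d had the fewest reads, 97 to 145 per library, and other named genes had fewer, such as Ms4a4a with 8 to 19.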
